A study of Mus musculus with 8 samples.

Results

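The expansion response examined here is the change in gene expression that long-term culture brought to mouse skeletal myogenic cells of 2 origins, progenitors made from embryonic stem cells (ESCs) and adult satellite cells. All 8 of the 8 sequenced libraries entered it, 4 from freshly isolated cells and 4 from expanded cells, and its members are the genes that moved the same way in both origins. TF cells were progenitors isolated fresh from teratomas that ESCs had formed, and TE cells were such progenitors grown to passage 8. SF cells were endogenous satellite cells isolated fresh, and SE cells were satellite cells grown to passage 8. Each group had 2 biological replicates. The cells in culture were kept on gelatin in a myogenic expansion medium and split every few days. The labels name no drug and no gene deletion in any group. In the study's procedure the ESCs carried EGFP, the teratomas grew in irradiated and cardiotoxin-injured leg muscles of immunodeficient, dystrophin-mutant NSG-mdx4Cv hosts, and myogenic cells were sorted as negative for CD31 and CD45 and positive for alpha7-integrin and VCAM-1. The mouse strain, age and sex behind the satellite cells are not given in the sources used here, nor whether a TE library was grown from the cells of a TF library.

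Satellite cells are the stem cells of adult muscle. They rest outside the cell cycle under the basal lamina of the fiber, where Pax7, Notch signaling and contact with the niche hold them, and on injury they enter the cycle as Myod1-positive myoblasts, turn on Myog, leave the cycle and fuse into fibers. Dissociation of muscle and sorting are known to induce stress and immediate early genes within the hours between tissue and lysis, and culture replaces the niche by medium, serum and plastic. A gene that differs between fresh and expanded cells may therefore follow culture, passage, isolation or a change in the mix of cells, and with bulk RNA fewer cells of a type and less RNA per cell cannot be told apart.

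The libraries held between 11930881 and 21146554 estimated counts, and the expanded libraries were the deeper ones (17035767 to 21146554 against 11930881 to 16872742; exact permutation test over the 8 libraries, two-sided, p = 0.0286, the smallest that 70 splits allow, and 0.0358 after Benjamini-Hochberg adjustment over 5 measures). Despite that depth, fewer genes were detected in expanded libraries, 15412 to 16430 against 17119 to 22138 (same p). SF replicate 1 stood apart with 22138 detected genes, against 17119 in its replicate. The ribosomal RNA precursor Rn45s took 17.01% to 18.8% of the counts of expanded libraries and 7.99% to 21.2% of fresh ones (exact permutation p = 0.429). The part of depth and detected genes in the results was not tested. Values for single genes are normalized counts, divided by median-ratio size factors, and a count of 0 allows up to 3 counts, which is 2.15 to 3.89 normalized counts depending on the library.

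The label of the cells was checked first. Pax7, the transcription factor that marks satellite cells, was at 3067 and 4914 normalized counts in TF, 4046 and 4581 in SF, 1503 and 1241 in TE, and 1743 and 1174 in SE. Every expanded library lay below every fresh one, and every library kept Pax7 far above the limit of detection. The log2 fold change of the additive fit was -1.43 ± 0.22 (SE; adjusted p = 0.00204), with nearly the same size in teratoma-derived (-1.49 ± 0.27) and satellite cells (-1.38 ± 0.27). Itga7, which encodes the sorted alpha7-integrin, was 2354 and 3118 in TF, 2810 and 3865 in SF, 4721 and 5074 in TE, and 3648 and 5761 in SE. It rose by 0.79 ± 0.22 on the log2 scale (adjusted p = 0.0249), although SE replicate 1 was below SF replicate 2 and the call was lost without any of 5 libraries (adjusted p between 0.0549 without TE replicate 1 and 0.0761 without SE replicate 2). Vcam1, the other sorted surface protein, was 3856 and 5197 in TF, 5378 and 6579 in SF, 580 and 600 in TE, and 1785 and 1037 in SE. It fell by 2.39 ± 0.29 (adjusted p = 0.000626). Over the 10 myogenic identity markers, all 10 were detected in both states, the summed level was 27411 to 83535 in fresh and 44276 to 69352 in expanded libraries, and 5 rose while 5 fell.

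In the additive fit, with origin as covariate, 2529 of 17582 tested genes were higher (14.4%) and 3492 lower (19.9%) in expanded than in fresh cells (quasi-likelihood test of edgeR, with an adjusted p under 0.05 and a log2 fold change of more than 0.32 in size). Of these, 2442 were higher in both origins by more than the fold threshold (13.9% of tested genes) and 3442 were lower in both (19.6%). The response shared by both origins thus held 5884 genes, 96.6% of the additive calls upward and 98.6% of those downward, a share that the additive test itself favors. Falls were larger than rises. The median log2 fold change of the genes that rose was 0.97 in teratoma-derived and 1.55 in satellite cells, and that of the genes that fell was -3.36 and -3.41, or -2.89 and -3.04 with genes at the limit of detection put at their bound. Of the genes that fell, 474 had no count in any of the 4 expanded libraries, whereas 3 of the genes that rose had none in any of the 4 fresh ones. Without SF replicate 1, the shared genes numbered 1729 upward and 2439 downward, of which 1667 and 2396 were also shared with all libraries.

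Each origin was then asked separately, since the contrasts of TE with TF and of SE with SF share no library. In teratoma-derived cells 1733 genes rose (9.86%) and 2848 fell (16.2%), and in satellite cells 3677 rose (20.9%) and 3475 fell (19.8%). Called in each origin were 1115 genes upward (6.34% of tested genes) and 1724 downward (9.81%). The genes called upward in both made up 64.3% of the teratoma-derived list and 30.3% of the satellite list, and those called downward 60.5% and 49.6%. Called in opposite directions were 55 genes that rose in teratoma-derived cells and fell in satellite cells and 152 with the reverse pattern. Across all 17582 genes the log2 fold changes of the 2 origins had a Pearson r of 0.603 and a Spearman rho of 0.602, which describes genes and not replicates, within 1 joint normalization. The genes called upward in each origin numbered 567 and 591 without TE replicate 2 or 1, 641 and 723 without TF replicate 2 or 1, and 1139 to 1267 without any 1 satellite library. Those that rose in teratoma-derived cells numbered 840 and 811 without TE replicate 1 or 2 and 1064 and 940 without TF replicate 1 or 2.

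**Figure D1:**
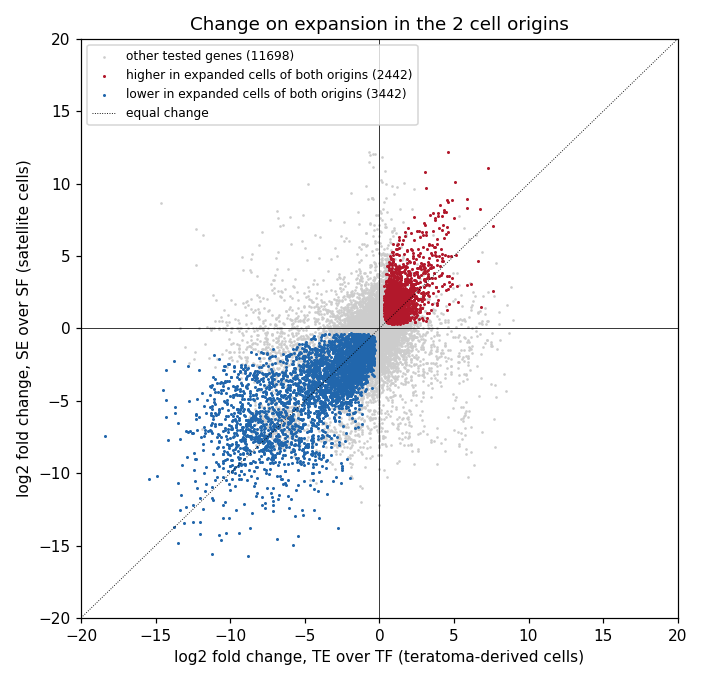
Log2 fold change on expansion in teratoma-derived cells (x axis, TE over TF) against that in satellite cells (y axis, SE over SF), 1 point per tested gene. The 2442 genes higher in both origins (red) reach further upward than to the right, while the 3442 genes lower in both (blue) lie on both sides of the line of equal change. Points far out on the blue side include genes at 0 counts, whose fitted value is no measured fold.

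For 2329 tested genes (13.2%) all 4 expanded libraries lay above all 4 fresh ones, and for 3395 (19.3%) all lay below. Among the shared genes these were 1956 upward and 2742 downward. The size of the response differed between origins for 2517 genes (14.3%) by the test of the difference itself, and for 1473 or 1467 without TE replicate 1 or 2. Of the shared genes that rose, 421 differed in size, 390 of them with the larger rise in satellite cells, and of those that fell, 471 differed, 264 with the larger fall in satellite cells. For the other shared genes a difference in size was not detected, which does not show that their changes were equal.

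The largest rises common to both origins were led by proteins of the sarcomere, the contractile unit of muscle. Tnnt2, the cardiac and embryonic troponin T, was 669 and 511 normalized counts in TF and 11.5 and 12.5 in SF, against 18060 and 19610 in TE and 6722 and 16830 in SE. Tnni1, the slow troponin I, was 286 and 124 in TF, 17.8 and 13.7 in SF, 5556 and 5981 in TE, and 3915 and 8870 in SE. For both genes every expanded library lay above every fresh one, SE replicate 1 was the lowest of the expanded libraries, and both TF libraries lay above both SF libraries. Myh3, the embryonic myosin heavy chain, was 3809 and 1761 in TF, 47.1 and 2.28 in SF, 62890 and 66310 in TE, and 68060 and 127200 in SE. Its log2 fold change was 4.59 ± 0.70 in teratoma-derived and 12.19 ± 0.99 in satellite cells, and in the additive fit 8.19 ± 2.03 (adjusted p = 0.0161). Tnnc1, the slow and cardiac troponin C, rose by 7.22 ± 1.05 (adjusted p = 0.00154), Myh7, the slow myosin heavy chain, by 6.27 ± 0.73 (adjusted p = 0.000517), Actc1, the cardiac actin also used by embryonic muscle, by 6.6 ± 1.11 (adjusted p = 0.0031), and Myom3, an M-band protein, by 5.68 ± 0.61 (adjusted p = 0.000358). Myosin heavy chains share long stretches of sequence, so their counts may be split between paralogs.

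Genes outside the sarcomere were also among the 12 largest rises. Fgf21, a hormone that muscle releases under mitochondrial or amino acid stress, was 1.3 and 19.7 normalized counts in TF, 0 and 0 in SF, 1618 and 1553 in TE, and 95.8 and 406 in SE. Its rise was 7.26 ± 0.95 on the log2 scale in teratoma-derived cells and at least 69.3-fold in satellite cells. Cox6a2, the muscle form of a cytochrome c oxidase subunit, was 37.6 and 4.92 in TF, 25.5 and 2.28 in SF, 747 and 677 in TE, and 167 and 644 in SE, and rose by 5.10 ± 0.82 (adjusted p = 0.0025). Both genes were at most 37.6 normalized counts in any fresh library and at least 95.8 in every expanded one. Cdk18, a cyclin-dependent kinase of the PCTAIRE group, rose by 4.87 ± 0.84 (adjusted p = 0.00339), and Prune2 by 5.62 ± 0.58 (adjusted p = 0.000305). Dynap was 62.1 and 30.1 in TE and 1925 and 400 in SE, and at most 6.37 in any fresh library.

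The 12 largest common falls went to the limit of detection in expanded cells of both origins. Calcr, the calcitonin receptor that keeps satellite cells quiescent, was 534 and 801 in TF and 1431 and 1428 in SF, and 0 in all 4 expanded libraries, at least 293-fold lower in TE and 605-fold in SE. Msc, a basic helix-loop-helix repressor of myogenic factors also called musculin, was 501 and 471 in TF and 2115 and 2820 in SF, and 0 in all expanded libraries, at least 213-fold and 1050-fold lower. Edn3, a ligand of endothelin receptors, was 1553 and 1812 in TF and 1610 and 2006 in SF, and 0 in all expanded libraries, at least 738-fold and 766-fold lower. These levels were alike in both fresh groups for Edn3 and higher in SF for Calcr and Msc. Col6a5, a collagen VI chain, was at least 421-fold and 290-fold lower, Vtn, which encodes the adhesive protein vitronectin, at least 215-fold and 601-fold, Entpd2, an ectonucleotidase, at least 299-fold and 256-fold, Fgl2, a fibrinogen-like protein, at least 599-fold and 1610-fold, and Iigp1, an interferon-inducible GTPase, at least 457-fold and 614-fold. C4b, a complement component, was between 1109 and 2155 in the fresh libraries and at most 0.715 in any expanded one. Among the same 12 genes were markers of cells outside the myogenic lineage, namely Kdr (endothelium), Clec3b (fibro-adipogenic cells) and Hba-a2 (red blood cells, with a near-identical copy), each at 0 in all 4 expanded libraries. Hba-a2 was 928 and 57.8 in the TF replicates.

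**Figure D2:**
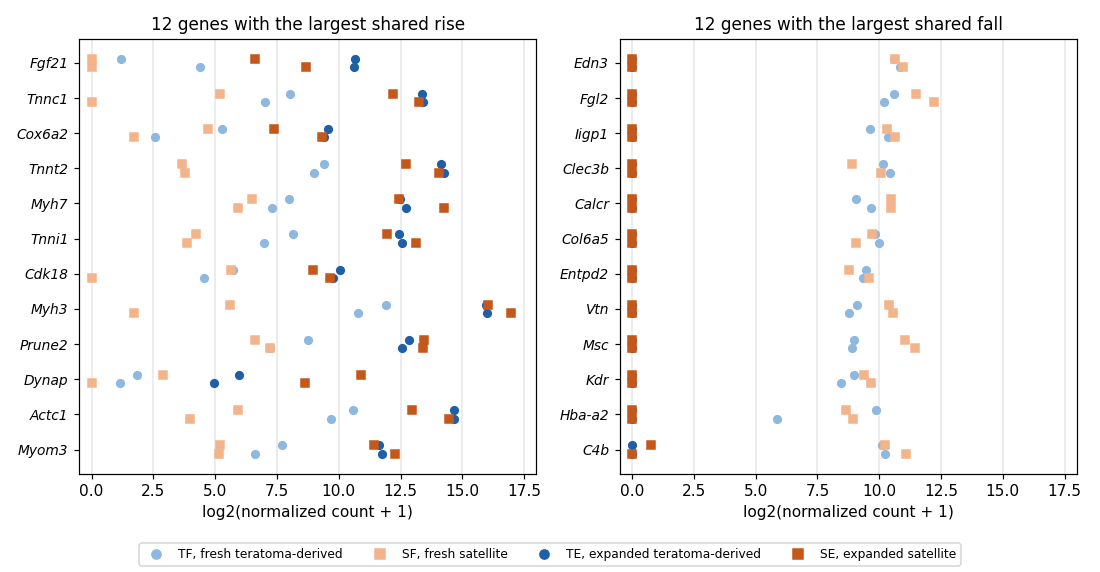
Log2(normalized count + 1) in each of the 8 libraries (x axis) for the 12 genes with the largest common rise (left) and the largest common fall (right), 1 row per gene, with circles for teratoma-derived and squares for satellite cells and dark symbols for expanded ones. For the falls every expanded library of 11 genes sits at 0, and for Tnnt2, Tnni1 and Myh3 the fresh satellite libraries sit below the fresh teratoma-derived ones.

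Other genes changed by nearly the same factor in both origins, taken among genes that averaged 500 or more normalized counts and changed by more than 2 on the log2 scale in each origin (116 genes upward and 319 downward, of which 21 and 63 differed between origins by less than 0.5). Mef2a, a MADS-box partner of the myogenic factors, was 1428 and 1195 in TF and 1832 and 1791 in SF, and rose to 5353 and 5486 in TE and 5030 and 9188 in SE (log2 fold change 2.10 ± 0.28 and 2.17 ± 0.28). Pck2, the mitochondrial phosphoenolpyruvate carboxykinase, rose by 2.30 ± 0.28 and 2.22 ± 0.29, and Mthfd1l, a mitochondrial enzyme of folate metabolism, by 2.42 ± 0.30 and 2.65 ± 0.31. Rps6ka2, an S6 kinase downstream of ERK, rose by 2.20 ± 0.28 and 2.22 ± 0.28, and Baiap2l1 and Lmo7, both linked to the actin cytoskeleton, rose by 3.50 ± 0.40 and 2.26 ± 0.40 in teratoma-derived and by 3.48 ± 0.41 and 2.48 ± 0.40 in satellite cells. Among the falls, Gem, a small GTPase, went from 5249 and 5046 in TF to 41.2 and 12.3 in TE and from 10070 and 14740 in SF to 52.9 and 69.5 in SE (log2 fold change -7.52 ± 0.50 and -7.48 ± 0.48). Tiparp, an enzyme of the PARP family, fell as well (-2.59 ± 0.20 in both origins), as did Adamts4, a protease of the matrix (-2.36 ± 0.23 and -2.41 ± 0.23), Igsf10 (-5.55 ± 0.37 and -5.61 ± 0.38) and Olfml2a (-3.48 ± 0.50 and -3.45 ± 0.50). These genes were chosen for their like sizes, so the likeness is a description.

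Markers of other cell types moved with culture in both origins. All 12 endothelial markers fell, and their summed level was 3443 to 10351 normalized counts in the fresh and 190 to 872 in the expanded libraries, with Kdr, Tie1, Emcn and Cldn5 at 0 in all expanded ones. All 13 tested haematopoietic markers fell (sum 1104 to 12089 in fresh, highest in TF replicate 1, and 52.4 to 168 in expanded), with Ptprc, Adgre1, C1qa, C1qb, C1qc and Tyrobp at 0. Of the 12 fibro-adipogenic markers 11 fell, and their sum was 89701 to 320973 in fresh and 10121 to 16507 in expanded libraries. The sort was set against CD31 and CD45, the products of Pecam1 and Ptprc, whose counts are part of these sums. Pericyte and smooth muscle markers (2 of 10 rose and 6 fell) had sums that overlapped, 35010 to 50794 in fresh and 30818 to 54602 in expanded libraries. The 2 that rose were Acta2 and Des, and Des also stands in the myogenic identity and contractile lists. The 6 that fell were Rgs5, Kcnj8, Abcc9, Pdgfrb, Notch3 and Myh11, with Kcnj8 at 0 in all expanded libraries. Schwann marker sums overlapped too (1 of 9 rose and 7 fell, 1697 to 4936 in fresh and 1132 to 2893 in expanded libraries). Markers of pluripotent cells, with 6 of 9 tested, summed to 1050 to 1680 and 172 to 452, and 2 of them, Tdgf1 and Klf2, fell. Klf2 also stands in the immediate early list, and the sum was 1050 and 1324 in SF, which did not come from ESCs. Markers of neural and epithelial tissue summed to 9364 to 20935 in fresh and 23495 to 38467 in expanded libraries, where Nes, which proliferating myoblasts also express, rose while 8 of 12 fell. Markers of mature fibers summed to 4924 to 12683 and 38250 to 158878, and 7 of 12 rose. The 5 not called were Ckm, Myh4, Myh1, Pvalb and Ckmt2. Of those that rose, Acta1, Tnnt3, Mylpf and Atp2a1 also stand in the contractile list below. The part of these cell types in the results for each gene group below was not tested.

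**Figure D3:**
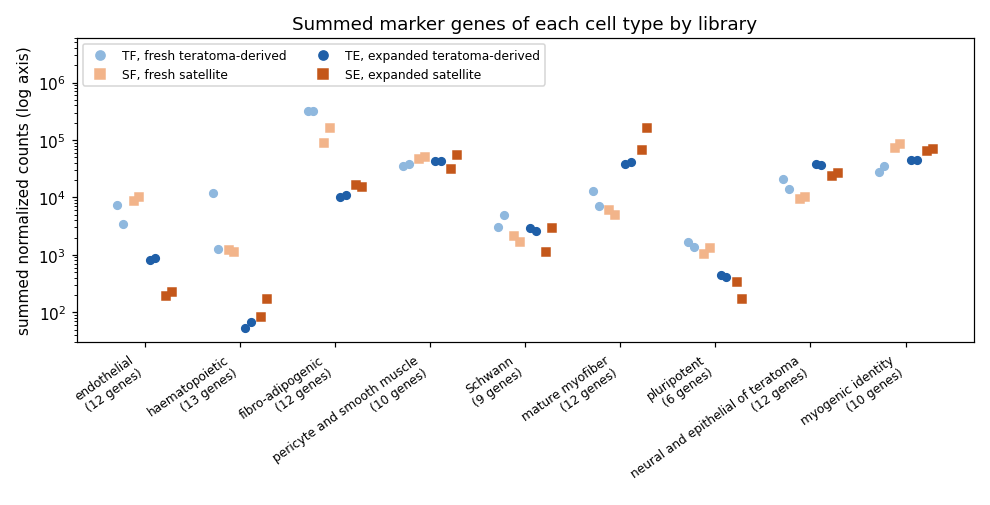
Summed normalized counts of the marker genes of each cell type (y axis, log scale) in each of the 8 libraries, 1 symbol per library, with circles for teratoma-derived and squares for satellite cells and dark symbols for expanded ones. Endothelial, haematopoietic and fibro-adipogenic sums separate fresh from expanded libraries downward, and mature myofiber sums upward.

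The 22 lists of genes with a known role were read next against the shares over all tested genes (13.9% higher and 19.6% lower in both origins; median log2 fold change -0.22 in the additive fit). Among the genes of satellite cell quiescence and niche, 22 of 34 fell and 3 rose (median -1.64). Cd34, a surface sialomucin of quiescent satellite cells and of endothelium, was 2377 and 2250 in TF, 2547 and 3242 in SF, 10.48 and 13.9 in TE, and 14.3 and 3.43 in SE, and fell by 7.80 ± 0.42 (adjusted p = 1.87e-05). Tek, an angiopoietin receptor of satellite cells and endothelium, fell by 7.49 ± 0.91 (adjusted p = 0.000623). Chrdl2, a BMP antagonist of the chordin family, was 202 and 533 in TF and 4334 and 5435 in SF, 0 in TE, and 0 and 12.01 in SE. Spry1, an inhibitor of receptor tyrosine kinase signaling, went from 2347 and 2693 in TF to 1107 and 1301 in TE, and from 3141 and 3343 in SF to 157 and 436 in SE. All 4 expanded libraries lay below all 4 fresh ones for Spry1, and the additive fit gave -2.13 ± 0.52 (adjusted p = 0.0151), but the fall within teratoma-derived cells did not pass the test (-1.01 ± 0.37, adjusted p = 0.0736). Cd34 and Tek are also endothelial genes, and the endothelial markers fell as given above.

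The myogenic regulators split by their place in the pathway, with 7 of 14 risen and 3 fallen (median 1.10). Myf5, the determination factor of resting and activated satellite cells, went from 802 and 1366 in TF to 144 and 64.0 in TE and from 1482 and 1723 in SF to 75.8 and 118 in SE, and fell by 3.59 ± 0.35 (adjusted p = 0.00022). Myog, the factor of terminal differentiation, went from 1328 and 1449 in TF to 11180 and 11840 in TE and from 8.92 and 14.8 in SF to 3993 and 13510 in SE. Both TF libraries lay above both SF libraries and below every expanded library. Mef2c, a cofactor of Myog, rose by 2.86 ± 0.47 (adjusted p = 0.00281). Myod1 was 638 and 930 in TF and 4826 and 4819 in TE, but 6767 and 8837 in SF and 10500 and 10700 in SE, so that TE lay below SF. Its additive rise of 1.65 ± 0.42 (adjusted p = 0.0183) was 2.68 ± 0.24 in teratoma-derived cells and 0.63 ± 0.23 (adjusted p = 0.0516) in satellite cells, and it did not pass without TF replicate 2 (adjusted p = 0.056).

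Among 33 tested genes of the contractile apparatus, 26 rose and 1, Mybpc2, fell (median 3.78, or 2.49 in teratoma-derived and 5.19 in satellite cells). The 6 not called were Myh1, Myh2, Myh4, Myh8, Mybpc1 and Ckm. For 19 of the 33 the log2 fold change was lower in teratoma-derived cells by the test of the difference, and for none was it higher. Mybpc2 was not called without TE replicate 2 or without SF replicate 2. The core promoters of this group were searched on both strands for the E-box CAGCTG that myogenic factors bind. Each window held the 250 bases before a RefSeq start (GRCm38.p6) and a shorter stretch after it. It lay in 13 of 30 windows (43.3%), against 16.3% of 32851 windows of all genes. A match is a description of letters and not of binding. Here and below the windows are those of list members called or not, so the shares describe the lists. For Tnnt2 (chr1:135836084-135836333, plus strand) the 250 bases before the start are shown 5′ to 3′ with matches in capitals. Tnnt2 was the list's shared member with the largest change among those with a match in these bases.
Tnnt2: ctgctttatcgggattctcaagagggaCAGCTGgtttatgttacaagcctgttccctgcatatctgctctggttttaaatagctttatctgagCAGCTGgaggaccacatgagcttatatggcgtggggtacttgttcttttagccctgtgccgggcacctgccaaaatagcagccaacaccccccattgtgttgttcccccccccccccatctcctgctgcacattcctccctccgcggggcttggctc

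The immediate early response, the transcription factors and feedback genes that stress and growth signals induce within minutes, was the list with the highest share fallen, 39 of 42 genes, with none risen (median -3.41). Fos was 32690 and 35780 normalized counts in TF, 24690 and 28540 in SF, 246 and 190 in TE, and 187 and 189 in SE, and fell by 7.10 ± 0.26 (adjusted p = 3.65e-06). Fosb was 33360 and 36570 in TF, 41770 and 47180 in SF, 30.7 and 31.6 in TE, and 23.6 and 21.4 in SE, and fell by 10.40 ± 0.32 (adjusted p = 2.87e-06). In fresh cells both were among abundant transcripts, and in expanded cells of both origins both sat within a narrow low range. The nuclear receptors Nr4a1 (-6.56 ± 0.46, adjusted p = 5.49e-05) and Nr4a3 (-6.9 ± 0.81, adjusted p = 0.000544) fell too. The 3 genes outside the call, Klf10, Dusp2 and Gadd45g, are named after their values were seen. Under the alternatives run for this list, 38 or 39 genes fell. The cyclic AMP response element TGACGTCA lay in 4 of 45 windows of this list (8.9%) and in 1.79% of all windows.

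The heat shock chaperones moved both ways, with 9 of 19 fallen and 6 risen (median -0.72, or 0.01 in teratoma-derived and -1.09 in satellite cells). The inducible Hsp70 genes, Hspa1a and Hspa1b, are near-identical and share reads. Hspa1b was 20010 and 19790 in TF, 59360 and 61480 in SF, 48.7 and 20.8 in TE, and 35.05 and 172 in SE, and fell by 9.05 ± 0.63 (adjusted p = 5.4e-05). Hspa1a fell by 10.03 ± 0.95 (adjusted p = 0.000198). Dnajb1, an Hsp40 partner of Hsp70, fell by 4.10 ± 0.19 (adjusted p = 8.34e-06) and Bag3, a cochaperone, by 2.81 ± 0.24 (adjusted p = 0.000135). The 6 genes that rose were Hspa4, Hspa4l, Hspb8, Hspe1, Hspd1 and Hsf2, named after their values were seen, of which Hspe1 and Hspd1 are the mitochondrial chaperonin.

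Genes of the cell cycle, which divide into those of DNA replication and those of mitosis, were read next. Of 48 mitotic genes 21 rose and none fell, with a median of 0.68 in teratoma-derived and 4.40 in satellite cells, and for 37, called as risen or not, the log2 fold change was lower in teratoma-derived cells by the test of the difference. Aurka, a kinase of the spindle poles, was 123 and 82.4 in TF, 47.1 and 54.7 in SF, 384 and 276 in TE, and 569 and 298 in SE, and rose by 2.50 ± 0.43 (adjusted p = 0.00357). Incenp, a scaffold of the chromosomal passenger complex, was 665 and 661 in TF, 127 and 125 in SF, 1360 and 1414 in TE, and 2066 and 1249 in SE. Of 45 genes of DNA replication 9 rose and none fell (median 1.13, or 0.23 in teratoma-derived and 1.97 in satellite cells). In 13 of the 45 the 2 log2 fold changes had opposite signs, called or not, as in 4623 of all 17582 tested genes. By the test of the difference 14 of the 45 differed, all lower in teratoma-derived cells. The 2 called upward in each origin were Rrm1, the large subunit of ribonucleotide reductase (1.67 ± 0.23, adjusted p = 0.00108), and E2f2, an activator of S-phase genes (2.58 ± 0.28, adjusted p = 0.000383). These counts rested on single libraries. Without SF replicate 1 the shared mitotic genes numbered 4, without SF replicate 2, 7, without SE replicate 2, 10, and without TE replicate 1 or 2, 32 or 33. The replication genes numbered 4 without either SF library and 16 when every gene with a count was tested. With median-ratio scaling or with DESeq2, 2 replication genes fell.

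Of 28 cyclin-dependent kinase inhibitors and p53 targets, 12 rose and 3 fell (median 0.89). Cdkn1a, the inhibitor p21, was 1972 and 1376 in TF, 2842 and 3323 in SF, 6253 and 6035 in TE, and 3897 and 7361 in SE, and rose by 1.5 ± 0.29 (adjusted p = 0.00559). Cdkn2a, which encodes p16 and Arf, was 107 and 46.8 in TF, 10.2 and 1.14 in SF, 714 and 845 in TE, and 1187 and 1075 in SE, and rose by 5.24 ± 0.97 (adjusted p = 0.00475). All expanded libraries lay above all fresh ones for both genes. Fas, a death receptor, fell by 4.42 ± 0.67 (adjusted p = 0.00189). Fallen genes numbered 1 without TE replicate 2 or without SE replicate 1.

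The genes that make and charge amino acids rose together. Of 20 cytosolic aminoacyl-tRNA synthetases, the enzymes that load tRNAs, 15 rose and none fell (median 1.39), and of 33 genes of amino acid synthesis and of ATF4, the transcription factor of the amino acid response, 19 rose and 1 fell (median 1.42). The test of the difference called 7 synthetases, all with the larger value in teratoma-derived cells. It called 14 genes of the other list, 13 of them with the larger value there. The exception was Asns, with the smaller rise in teratoma-derived cells (difference -1.32). Asns, the asparagine synthetase, was 470 and 454 in TF, 43.3 and 42.2 in SF, 6095 and 5881 in TE, and 988 and 1531 in SE, and rose by 4.38 ± 0.33 (adjusted p = 7.85e-05). Phgdh, the first enzyme of serine synthesis, was 545 and 687 in TF, 163 and 153 in SF, 4628 and 4770 in TE, and 2107 and 1925 in SE, and rose by 3.42 ± 0.24 (adjusted p = 5.4e-05). Psph, the last enzyme of that route, rose by 3.76 ± 0.31 (adjusted p = 0.000123). The order was the same for Asns and Phgdh, with TE highest and SF lowest. Gars, the glycyl-tRNA synthetase, was 2057 and 2178 in TF, 921 and 1148 in SF, 16470 and 15160 in TE, and 3799 and 4314 in SE, and rose by 2.56 ± 0.23 (adjusted p = 0.000167). Mars, Lars and Sars, which load methionine, leucine and serine, rose by 2.00 ± 0.17, 1.96 ± 0.18 and 2.04 ± 0.23. The gene of this group that fell was Cbs, the first enzyme from homocysteine to cysteine, at 211 and 238 in SF and at most 7.87 in any expanded library, and 2 genes fell without TF replicate 1.

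The CEBP-ATF response element core TGATGNAA, the letters that ATF4 with a CEBP partner binds, lay in 9 of 31 promoter windows of the amino acid list (29.0%) and in 5 of 12 windows of the synthetases (41.7%), against 3.97% of all windows. The amino acid list was drawn up to include targets of ATF4, so its share of these letters is no result of expansion. The 250 bases before the start are shown for Asns (chr6:7693210-7693459, minus strand) and Gars (chr6:55037751-55038000, plus strand), with the match in capitals. Each was the shared member of its list with the largest change among those with a match in these bases. In Gars the match reads on the other strand.
Asns: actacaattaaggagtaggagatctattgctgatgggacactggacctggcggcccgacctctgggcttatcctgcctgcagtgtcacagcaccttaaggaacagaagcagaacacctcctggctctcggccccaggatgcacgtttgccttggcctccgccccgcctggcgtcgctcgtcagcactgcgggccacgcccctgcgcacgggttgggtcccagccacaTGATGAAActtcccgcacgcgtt
Gars: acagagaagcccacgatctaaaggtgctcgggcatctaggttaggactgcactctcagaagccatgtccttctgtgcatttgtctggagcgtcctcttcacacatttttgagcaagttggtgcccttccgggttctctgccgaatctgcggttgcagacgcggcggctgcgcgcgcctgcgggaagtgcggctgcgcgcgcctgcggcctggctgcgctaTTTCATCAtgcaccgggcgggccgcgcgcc

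Nuclear-encoded genes of oxidative phosphorylation rose in 45 of 51 cases, with none fallen (median 1.24, or 0.67 in teratoma-derived and 1.78 in satellite cells), and 25 of the 51 differed between the origins, all with the lower log2 fold change in teratoma-derived cells. Uqcrq, a subunit of complex III, was 971 and 946 in TF, 355 and 300 in SF, 3059 and 2810 in TE, and 1815 and 2029 in SE, and rose by 2.20 ± 0.25 (adjusted p = 0.000474). Cox5a, a subunit of complex IV, rose by 1.78 ± 0.33 (adjusted p = 0.00487), Ndufb8, of complex I, by 1.47 ± 0.26 (adjusted p = 0.00369), and Atp5o, of the ATP synthase, by 2.02 ± 0.36 (adjusted p = 0.00418). The NRF1 site core GCGCATGCG lay in 4 of 41 windows of this list (9.8%) and in 1.75% of all windows. Of 31 proteasome genes 23 rose and none fell (median 0.89), and 15 rose without SF replicate 1. Psmc3, an ATPase of the base, rose by 1.44 ± 0.17 (adjusted p = 0.000542) and Psmd14, the deubiquitinase of the lid, by 1.17 ± 0.18 (adjusted p = 0.00214). The ribosomal proteins moved little, with 5 of 65 risen (7.7%, under the 13.9% over all genes) and none fallen, and a median of 0.35. Rpl27 rose by 0.84 ± 0.17 (adjusted p = 0.00742). Without 1 library, whichever it was, 2 or 3 ribosomal genes were called.

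Glycolysis and hypoxia genes moved both ways, with 14 of 35 risen and 6 fallen (median 0.51). Eno1, the enolase, which has a near-identical copy, was 2626 and 1950 in TF, 1227 and 1398 in SF, 6100 and 6835 in TE, and 25530 and 23610 in SE. Egln3, a prolyl hydroxylase that HIF induces, was 262 and 241 in TF, 56.0 and 78.7 in SF, 875 and 849 in TE, and 2973 and 1922 in SE. Both rose in each origin and more in satellite cells. The glucose transporter Slc2a3 fell by 3.07 ± 0.35 (adjusted p = 0.000486) and Car12, a carbonic anhydrase, by 2.91 ± 0.56 (adjusted p = 0.0059). Without SF replicate 1 or 2 the risen genes numbered 6 or 7.

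Cholesterol synthesis and uptake genes, which SREBP2 controls, fell in 17 of 29 cases with none risen (median -1.11). Idi1, the isomerase of the isoprene unit, was 866 and 886 in TF, 1211 and 1512 in SF, 144 and 129 in TE, and 166 and 265 in SE, and fell by 2.55 ± 0.23 (adjusted p = 0.000151). Cyp51, a demethylase of lanosterol, fell by 2.20 ± 0.25 (adjusted p = 0.000497). The sterol regulatory element core TCACNCCAC lay in 1 of 28 windows of the list and in 1.24% of all windows. Without TE replicate 2 the fallen genes numbered 10.

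**Figure D4:**
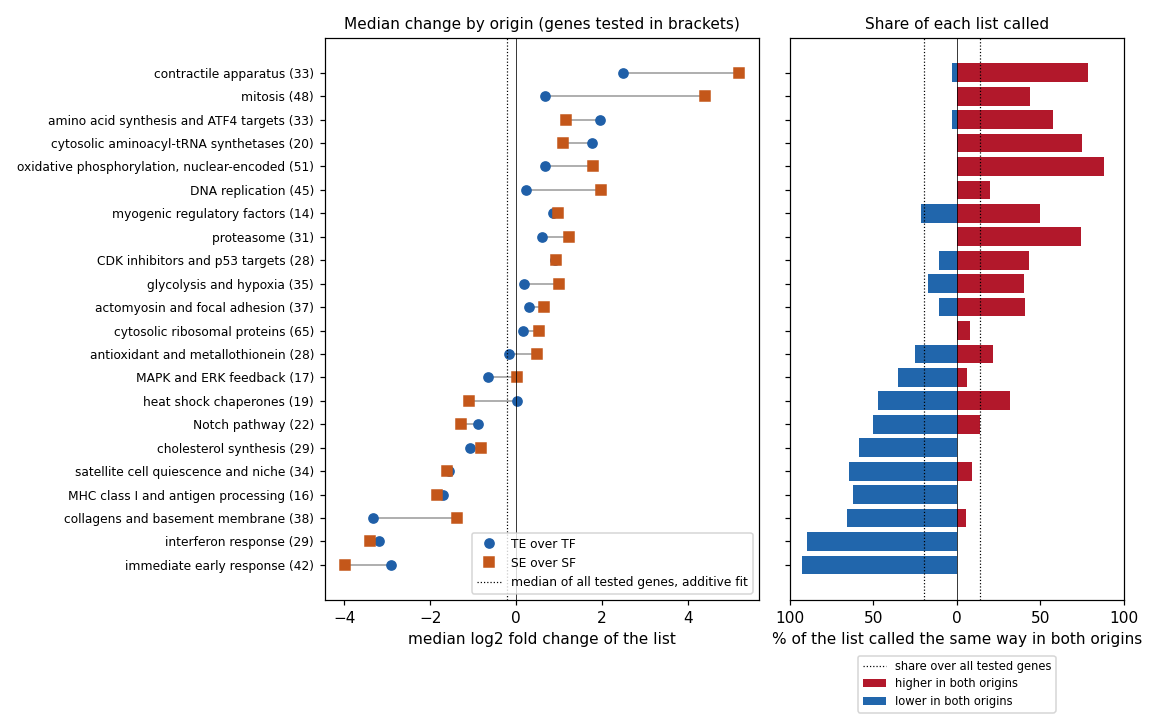
Left, median log2 fold change of each list in teratoma-derived cells (circles) and satellite cells (squares), with the median of all tested genes dotted. Right, share of each list's tested genes higher (red) or lower (blue) in both origins, with the shares over all tested genes, 13.9% and 19.6%, dotted. The immediate early medians are -2.92 and -3.99 and the interferon medians -3.18 and -3.40, while the contractile (2.49 and 5.19) and mitosis (0.68 and 4.40) medians lie higher in satellite cells.

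Genes of the interferon response, which cells use against viruses, fell in 26 of 29 cases with none risen (median -3.41). Gbp2, a guanylate-binding protein, was 746 and 892 in TF, 1752 and 2188 in SF, 9.73 and 4.63 in TE, and 11.4 and 8.58 in SE, and fell by 7.10 ± 0.33 (adjusted p = 8.34e-06). Ifit3, which has a close paralog, was 618 and 1102 in TF, 280 and 314 in SF, 6.74 and 6.17 in TE, and 0 and 2.57 in SE. Mx2 was 136 and 94.7 in TF, 252 and 344 in SF, 0 in TE, and 0 and 4.29 in SE, and Oas1a was 183 and 46.8 in TF, 15.3 and 12.5 in SF, and 0 in all expanded libraries. No expanded library reached 12 normalized counts for any of the 4. The haematopoietic marker sum, also lower in expanded cells, was 12089 in TF replicate 1 and 1104 to 1256 in the other fresh libraries. In TF replicate 1 Oas1a was the highest and Gbp2 the lowest of the 4 fresh libraries, and the part of haematopoietic cells in these falls was not tested. The interferon-stimulated response element core GAAANNGAA lay in 15 of 26 promoter windows of this list (57.7%), against 8.56% of all windows. The 250 bases before the start of Ifit3 (chr19:34583279-34583528, plus strand) hold 3 matches, which read on the other strand and stand in capitals. Ifit3 was the shared member with the largest change among those with a match in these bases.
Ifit3: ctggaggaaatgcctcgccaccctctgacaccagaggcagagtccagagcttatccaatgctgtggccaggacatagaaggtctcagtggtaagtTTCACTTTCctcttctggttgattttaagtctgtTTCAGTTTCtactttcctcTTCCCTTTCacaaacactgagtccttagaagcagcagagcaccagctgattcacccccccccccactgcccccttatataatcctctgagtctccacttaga

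Genes of MHC class I and of antigen processing fell in 10 of 16 cases with none risen (median -1.82). H2-K1, a class I heavy chain, was 1219 and 1174 in TF, 3992 and 5056 in SF, 71.1 and 35.5 in TE, and 24.3 and 63.5 in SE, and fell by 5.46 ± 0.57 (adjusted p = 0.00031). H2-D1, a near relative of H2-K1 with which it may share reads, fell by 5.16 ± 0.52 (adjusted p = 0.000246). Psmb8, a subunit of the immunoproteasome, went from 214 and 162 in TF to 9.73 and 11.6 in TE and from 241 and 284 in SF to 30.8 and 12.9 in SE. Nlrc5, the transactivator of class I genes, was 35.05 and 28.3 in TF and 432 and 473 in SF, and at most 12.01 in any expanded library.

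Collagens and basement membrane genes fell in 25 of 38 cases and rose in 2, Col18a1 and Nid2 (median -2.17, or -3.32 in teratoma-derived and -1.37 in satellite cells), and 26 differed in size, all with the lower value in teratoma-derived cells. Lama4, a laminin chain of niche and vessels, was 4845 and 4586 in TF, 1506 and 1560 in SF, 33.7 and 30.1 in TE, and 10.01 and 14.6 in SE, and fell by 6.97 ± 0.23 (adjusted p = 2.87e-06). Eln, elastin, was 39420 and 41660 in TF and 1117 and 1453 in SF, 0 in TE, and 0 and 13.7 in SE. Dcn, a proteoglycan of connective tissue, was 13520 and 12230 in TF and 9758 and 16120 in SF, and at most 57.7 in any expanded library. Lum, a related proteoglycan, was 4732 and 4780 in TF and 661 and 1628 in SF, and at most 5.99 in any expanded library. Both stand in the fibro-adipogenic list as well, whose sum was 318889 and 320973 in TF and 89701 and 161746 in SF. Without either SF library 1 collagen or basement membrane gene rose. Actomyosin and focal adhesion genes rose in 15 of 37 cases and fell in 4 (median 0.40), and 2 fell without TF replicate 1, TE replicate 2, SE replicate 2 or either SF library. Tpm2, a tropomyosin, rose by 3.44 ± 0.37 (adjusted p = 0.000351), Vasp, which elongates actin filaments, by 2.22 ± 0.25 (adjusted p = 0.000474), and Ankrd1, a target of YAP, by 3.49 ± 0.72 (adjusted p = 0.00749), while Ccn2, another YAP target, fell by 3.06 ± 0.55 (adjusted p = 0.00418).

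**Figure D5:**
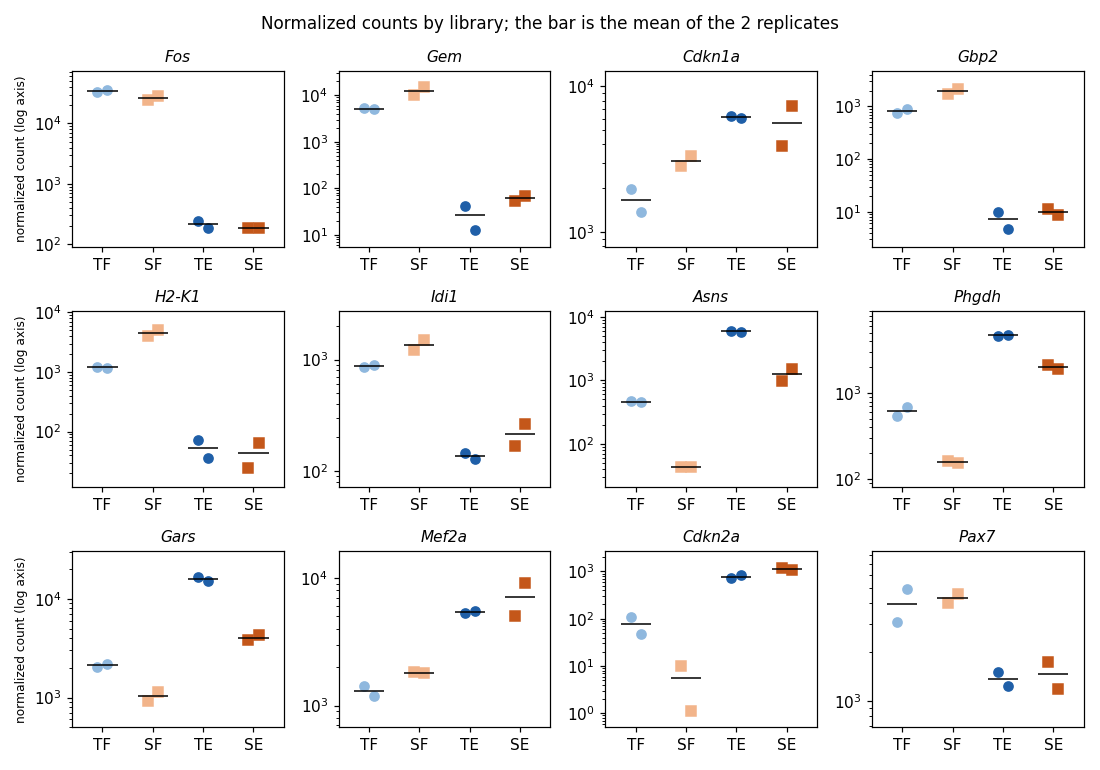
Normalized counts (y axis, log scale) of 12 genes in the 2 libraries of each group, with the mean as a bar. Fos, Gem, Gbp2, H2-K1, Idi1 and Pax7 lie lower in both expanded groups, and Cdkn1a, Asns, Phgdh, Gars, Mef2a and Cdkn2a lie higher. For each gene no expanded library overlaps a fresh one. The 12 were picked from the named genes without a rule. Over all tested genes, 13.2% lay higher and 19.3% lower in expanded libraries without overlap.

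Of 22 tested genes of the Notch pathway 11 fell and 3, Dll1, Jag2 and Hes6, rose (median -1.0). Hey1, a target and effector of Notch in quiescent satellite cells, was 556 and 634 in TF, 594 and 942 in SF, 30.7 and 56.3 in TE, and 69.4 and 84.1 in SE, and fell by 3.42 ± 0.32 (adjusted p = 0.000199). Hey2 was 149 and 132 in TF and 103 and 117 in SF, and at most 5.15 in any expanded library. Dll4 and Notch4, a ligand and a receptor known from endothelium, also fell (-6.68 ± 1.34, adjusted p = 0.00686, and -4.98 ± 1.16, adjusted p = 0.0124), as did all 12 endothelial markers. Of 17 genes of MAPK and ERK feedback 6 fell and 1 rose (median -0.23). Errfi1, an inhibitor of EGF receptors, was 8204 and 8400 in TF, 48260 and 56970 in SF, 798 and 833 in TE, and 3756 and 1437 in SE. Ier3 fell by 3.66 ± 0.26 (adjusted p = 5.49e-05) and Spry4 by 1.33 ± 0.33 (adjusted p = 0.0159), whereas Dusp4, a phosphatase of MAP kinases, rose by 2.59 ± 0.49 (adjusted p = 0.00537). Without TF replicate 2 or TE replicate 2, 2 genes of this list rose. Of 28 antioxidant and metallothionein genes 6 rose and 7 fell (median 0.23). Mt1, a metallothionein that binds zinc and copper, was 1964 and 2248 in TF, 10880 and 13030 in SF, 308 and 365 in TE, and 249 and 333 in SE. Mt2, its neighbor in sequence and function, was 1410 and 1590 in TF, 8778 and 10000 in SF, 53.2 and 141 in TE, and 43.6 and 149 in SE. Srxn1, a sulfiredoxin, fell by 2.50 ± 0.29 (adjusted p = 0.000515) and Gstm2, a glutathione transferase, fell by 1.89 ± 0.32 (adjusted p = 0.00312).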

How the data were processed

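The authors deposited 1 table of estimated counts of reads per gene symbol for 24980 symbols in 8 libraries, not normalized and with replicates kept apart. Per the submitters' processing notes, CASAVA and kallisto 0.44.0 were used, with the builds GRCm38 and mm10; how transcript estimates were joined to symbols is not given in the sources used here. Libraries were made from total RNA with a stranded low-input kit.

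Estimated counts were rounded. Genes were filtered with filterByExpr by group (17582 kept), normalized by TMM and tested with the quasi-likelihood test of edgeR 4.0.16 (R 4.3.3) in 2 fits, an additive fit of origin and state (5 residual degrees of freedom, common dispersion 0.368) and a fit of the 4 groups (4 degrees of freedom) for the effect in each origin and their difference. A call needed a Benjamini-Hochberg adjusted p below 0.05 over all genes and a fold change above 1.25, the thresholds of the study. A shared gene was called in the additive fit and passed the fold threshold the same way in both origins. SE after ± is the standard error. Printed counts were divided by median-ratio size factors of DESeq2 1.42.0. Depth bounds precision: intervals and floors cover counting error only, and p-values of the 4-group fit measure the spread between these 2 samples per group. The standard errors and p-values of the additive fit also take in how far the change differed between the origins. A gene that changed by unlike amounts in the 2 origins could therefore miss the additive call. Scripts were tested on simulated data. The members, the 22 pathway lists and 9 marker lists were chosen with earlier results of these data known.

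Genes were named by rule: per direction, the 12 genes called in each origin and by the additive test, without overlap between fresh and expanded libraries and averaging 50 or more normalized counts, whose smaller change was largest (clone names left out); up to 4 shared genes of each list by the same measure; Pax7, Spry1, Myod1, Myog, Cdkn1a, Itga7 and Vcam1; and 6 genes per direction with the most equal changes. Other genes are said to be chosen after their values were seen, or complete a short count. Promoter windows and motif shares came from RefSeq tables of GRCm38.p6. Alternatives were median-ratio scaling, no filter, DESeq2, glmTreat at the fold threshold, a block for the replicate number, the mean of the 2 effects in the 4-group fit, and each library left out. They were set for the additive, shared and each-origin counts and the additive changes of named genes, and were added after seeing the data for the lists, the counts of each origin and the differences between origins. The result of 1 gene that the rule named is not reported here.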

Additional observations from a re-analysis of the deposited data

Results flagged for a closer look

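Of the named genes, 29 reported here changed on expansion by a different amount in teratoma-derived and satellite cells, by edgeR's test of the difference itself in the fit of the 4 groups (adjusted p below 0.05). Values are the log2 fold change in teratoma-derived minus that in satellite cells, from 2 libraries per group. Groups of 2 are too small for a search for single outlying libraries.

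For genes that rose, a negative value is a smaller rise in teratoma-derived cells. Of the contractile and linked genes, it was -7.59 for Myh3, -5.06 for Tnnt2, -4.35 for Actc1, -3.98 for Tnni1, -2.62 for Myh7 and -2.48 for Myom3, and -2.09 for Prune2. Myog stood at -6.58. For Myog, Tnnt2, Tnni1 and Myh3 both TF libraries lay above both SF libraries. Of the cell cycle genes, the difference was -4.93 for Gtse1, -4.45 for Cdkn2a, -3.34 for Spc25, -2.79 for Cenpe and -2.78 for Incenp. In metabolism it was -3.53 for Egln3, -2.86 for Eno1, -1.68 for Atp5o, -1.32 for Asns and -1.08 for Uqcrq. The proteasome subunit Psmd6 was at -1.05 and the ribosomal protein Rps20 at -0.92. A larger rise in teratoma-derived cells was measured for Ankrd1 (3.41) and Myod1 (2.05).

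For genes that fell, a positive value is a smaller fall in teratoma-derived cells. It was 4.24 for Perp, 2.58 for Mt1, 2.53 for Mt2, 2.25 for Spry1, 2.08 for H2-K1 and 1.94 for H2-D1. Perp was at 3.58 and 0 normalized counts in SE, near the floor, so its value rests on few counts. Eln fell further in teratoma-derived cells (adjusted p of the difference = 0.00704), where both TE libraries held no count, so that no fold of the difference is given. The call was lost under at least 1 alternative for Asns, Eln, H2-D1, H2-K1, Mt2, Myh7, Perp, Prune2, Psmd6, Rps20 and Uqcrq. No explanation of these differences was tested.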

How the results depend on the processing

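Whether libraries with the same replicate number came from the same cells is not given in the sources used here. The deviations of TF replicate 1 and TE replicate 1 from their group means had a correlation of -0.0184 across genes, and those of SF and SE replicate 1 -0.033. These correlations cannot decide the question, since cells from 1 source need not deviate alike after culture. With the replicate block, 1299 genes were higher and 2110 lower in expanded cells, and 1299 and 2102 were shared, of which 1295 and 2092 were also shared without it. The mean of the 2 effects in the 4-group fit called 3939 genes higher. With one library left out in turn, the genes called higher in each origin ranged from 567 to 1267 and the genes whose effects differed from 1467 to 2996. DESeq2 called 5189 genes lower and 4927 shared lower, and testing every gene with a count gave 3646 genes whose effects differed. Genes that rose in teratoma-derived cells ranged from 811 to 2116 with one library left out. Under the other settings these counts stayed within 1.5 times of those reported.

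Median-ratio scaling moved the median log2 fold change of all genes by -0.12, and raised the share of lower genes among the additive calls from 58% to 64.4% (64.5% with DESeq2). Of the additive changes of the 123 named genes, none reversed under any alternative, and 12 genes lost the call in at least 1 setting, among them Itga7 as given above and Myod1, which also missed the threshold with the replicate block (adjusted p = 0.0554). With the replicate block, 7 mitosis, 5 replication, 27 oxidative phosphorylation, 12 proteasome, 6 glycolysis, 2 heat shock and 1 ribosomal genes rose. The cholesterol genes that fell there numbered 9. Mitosis genes numbered 36 with every gene tested and 35 with DESeq2. The causes were not tested. The 2 libraries per group and the floor of 2.15 to 3.89 normalized counts limit what could be detected in low genes.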
